A study of Homo sapiens with 18 samples.

Results

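The genes followed here are 10 regulators and markers of the epithelial to mesenchymal transition: the transcription factors SNAI1, SNAI2, ZEB1, ZEB2, TWIST1 and TWIST2, the cadherins CDH1 and CDH2, the filament gene VIM and the surface adhesion gene EPCAM. They were taken by symbol from the 62649 gene IDs of the deposited tables, and every library held at least 1 count of each. In A549 cells 9 of them passed the low-count filter and were tested, TWIST2 being left out, and in BEAS-2B cells all 10 were tested. A549 cells derive from a human lung adenocarcinoma of alveolar type. BEAS-2B cells are human bronchial epithelium made immortal in culture. The labels call both wild type. Cells were plated on 24 mm inserts 24 h ahead. Their upper surface then met the aerosol directly, at an air-liquid interface, during 4 h of exposure. The groups of each line were complete wood smoke, filtered wood smoke and a clean air control, with 3 mRNA libraries a group and 18 over the 6 groups. By its title the study asked about gas-phase carbonyl compounds in wood smoke toxicity. All A549 libraries carry one series of sample names and all BEAS-2B libraries another, so the line and the library series cannot be told apart.

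In the epithelial to mesenchymal transition, cells that are held together in a sheet loosen their junctions and take on features of migrating cells. SNAI1 and SNAI2 are zinc-finger repressors, ZEB1 and ZEB2 are zinc-finger homeobox repressors, and all 4 bind E-box sequences, among them those of the CDH1 promoter. TWIST1 and TWIST2 are basic helix-loop-helix factors that bind E-boxes as dimers with E-proteins. CDH1 encodes E-cadherin, the adhesion molecule of epithelial adherens junctions, and EPCAM another epithelial adhesion molecule, while CDH2 encodes N-cadherin and VIM the intermediate filament vimentin, both typical of mesenchymal cells. In lung epithelium the programme is known from injury, fibrosis and carcinoma, and both lines are known to carry part of it in culture.

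Counts assigned to genes ranged from 14438397 to 21432089 per A549 library and from 28532235 to 55032499 per BEAS-2B library. Levels are given as CPM, counts scaled to a common library total, after TMM scaling over all 18 libraries, as mean ± SD of 3 libraries, and the scaling factors ran from 0.596 to 1.29. In BEAS-2B cells this scaling matters: with library size alone the median change of all genes was -0.75 with complete and -0.74 with filtered smoke on the log2 scale, against -0.06 and -0.07 with TMM. In A549 cells the same medians were -0.10 and -0.15 with library size alone, against 0.02 and 0.01. Library 3 of BEAS-2B cells with complete smoke had 31.7% of its reads mapping to several places, and clean air library 1 of that line stood apart from the other controls in several of the genes below, so BEAS-2B results are also given without both where that changes a call. The epithelial keratins KRT7, KRT8, KRT18 and KRT19 summed to 6392 to 8474 CPM in A549 and 3425 to 8590 CPM in BEAS-2B cells with clean air, and all 4 were above 1 CPM on average in every group. Of 10 alveolar type 2 markers only 2 reached a mean of 1 CPM in A549 cells with clean air, and SFTPA1, SFTPA2 and SLC34A2 had no count in any A549 library. Of 7 bronchial basal markers all 7 reached 1 CPM in BEAS-2B cells. The 7 fibroblast markers summed to 620 to 1021 CPM in BEAS-2B cells with clean air, most of it COL1A1, against 31.0 to 47.3 CPM in A549 cells, and to 401 to 647 CPM in exposed BEAS-2B cells. Endothelial markers never summed above 1.80 CPM, and immune markers never above 11.1 CPM. The part that these other markers have in the results below was not tested.

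With clean air the 2 lines held different sets of these genes. Genes were ordered per kb of exonic length, the combined length of all annotated exons of a gene. This length, 25.1 kb for ZEB2 and 5.16 kb for VIM, can exceed that of the transcripts present, which was not measured. The order of genes therefore holds for this measure only. VIM was the highest in both lines, at 168 ± 25.4 CPM per kb in A549 and 406 ± 67.1 in BEAS-2B cells, followed by CDH2 at 20.3 ± 1.22 and 13.6 ± 2.87. In A549 cells the order went on with CDH1 (9.07 CPM per kb), ZEB1 (3.51), SNAI1 (2.22), EPCAM (1.97), TWIST1 (1.02), SNAI2 (0.775), ZEB2 (0.199) and TWIST2 (0.0665), and of neighbours in this order only SNAI1 and EPCAM had overlapping libraries. In BEAS-2B cells it went on with EPCAM (5.21 CPM per kb), SNAI2 (4.81), CDH1 (4.15), TWIST1 (3.61), SNAI1 (1.95), ZEB2 (1.75), ZEB1 (1.51) and TWIST2 (0.151). There the libraries of EPCAM, SNAI2, CDH1 and TWIST1 overlapped from neighbour to neighbour, as did those of SNAI1, ZEB2 and ZEB1. All genes were measured in the same libraries, and overlapping ranges do not show whether neighbours differ within a library. EPCAM and TWIST1, which are not neighbours, did not overlap (4.54 to 5.76 against 3.03 to 4.52 CPM per kb).

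**Figure D1:**
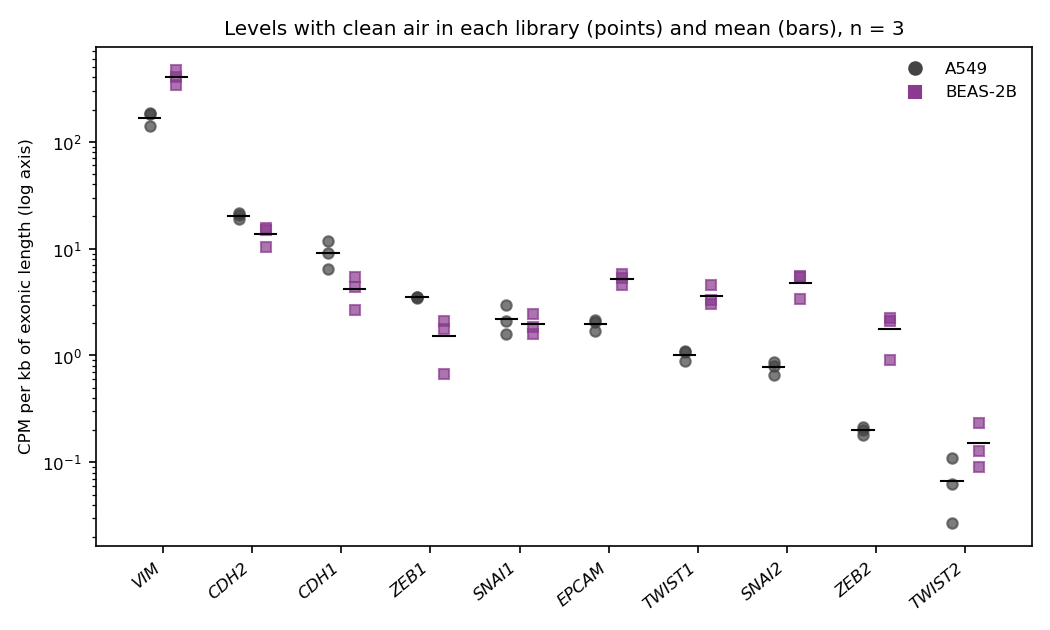
Levels of the 10 genes with clean air, in CPM per kb of exonic length (log axis), for A549 (circles) and BEAS-2B cells (squares); points are libraries and bars the means of 3. ZEB2, SNAI2, TWIST1, EPCAM and VIM lie higher in BEAS-2B cells, and ZEB1, CDH1 and CDH2 lie higher in A549 cells, with no overlap of the libraries in these 8 genes.

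Compared gene by gene with clean air, 5 of the 10 genes were higher in BEAS-2B cells and 3 were higher in A549 cells, while 55.4% of the 17703 genes tested in both lines passed, 27.3% higher and 28.0% lower in BEAS-2B cells. ZEB2 differed most: its libraries held 5.06, 5.37 and 4.53 CPM in A549 cells and 22.8, 52.7 and 56.2 CPM in BEAS-2B cells. All 3 BEAS-2B libraries lay above all A549 libraries, with a log2 difference of 3.14 ± 0.40 (SE; adjusted p = 3.97e-06). Its relative ZEB1 went the other way, with 30.8, 29.7 and 30.6 CPM in A549 against 5.82, 15.4 and 18.04 CPM in BEAS-2B cells (-1.21 ± 0.43, adjusted p = 0.0229). ZEB1 no longer passed without A549 clean air library 3 (adjusted p = 0.0569) or BEAS-2B clean air library 1 (-0.86, adjusted p = 0.0928). SNAI2 held 2.69, 2.96 and 2.24 CPM in A549 and 11.4, 19.0 and 18.5 CPM in BEAS-2B cells (2.63 ± 0.25, adjusted p = 1.05e-07), and SNAI1 did not pass (-0.17, 95% confidence interval -0.98 to 0.63). TWIST1 was also higher in BEAS-2B cells, at 7.34 ± 1.62 against 2.08 ± 0.23 CPM (1.82 ± 0.27, adjusted p = 2.52e-05).

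The adhesion genes did not split by their usual roles. CDH1, the epithelial cadherin, was lower in BEAS-2B cells (16.5, 33.2 and 27.3 CPM against 56.2, 39.5 and 72.5 CPM; log2 difference -1.13 ± 0.32, adjusted p = 0.00595), whereas EPCAM was higher (11.4, 14.5 and 13.4 CPM against 5.22, 4.24 and 5.40 CPM; 1.41 ± 0.17, adjusted p = 2.68e-06). VIM was higher in BEAS-2B cells (2440, 2092 and 1747 CPM against 935, 955 and 718 CPM; 1.27 ± 0.26, adjusted p = 0.000456), and the mesenchymal cadherin CDH2 was lower (51.0, 76.6 and 74.4 CPM against 106, 102 and 93.9 CPM; -0.58 ± 0.20, adjusted p = 0.0216). The CDH2 difference no longer passed without A549 clean air library 1 (adjusted p = 0.0651) or 2 (0.0637) or BEAS-2B clean air library 1 (0.103). In all 8 genes that passed, the libraries of the lines did not overlap, as in 67.5% of all genes tested.

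After 4 h of smoke the panel changed in both directions. The calls listed here do not pair libraries by sample number, and paired values are given further on with CDH1, CDH2 and ZEB1. In A549 cells complete smoke raised 4 of the 9 genes tested (SNAI1, SNAI2, VIM and EPCAM) and lowered 2 (ZEB1 and ZEB2). In that comparison 32.5% of all 15244 genes tested passed, 15.6% higher and 16.9% lower. Filtered smoke raised SNAI1, SNAI2, VIM and EPCAM and lowered ZEB1, ZEB2 and CDH2, with 46.7% of all genes passing, 23.1% higher and 23.5% lower. The libraries of exposed and control cells did not overlap in 7 genes of the panel with either smoke, against 52.1% and 57.4% of all genes. In BEAS-2B cells complete smoke raised 2 of 10 (SNAI1 and VIM) and lowered 2 (ZEB2 and CDH1), with 41.0% of 16356 genes passing, 21.5% higher and 19.5% lower. Filtered smoke raised SNAI1, VIM and TWIST2 and lowered ZEB2 and CDH1, with 48.6% of all genes passing, 23.6% higher and 24.9% lower. There the libraries did not overlap in 3 and 5 genes of the panel with complete and filtered smoke, against 48.3% and 61.1% of all genes. So large a share of genes passed that a count of members near these shares is not a result about the panel, and the direction and size of each gene carry the description. In a bulk sample fewer cells that hold a transcript and less of it per cell cannot be told apart.

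**Figure D2:**
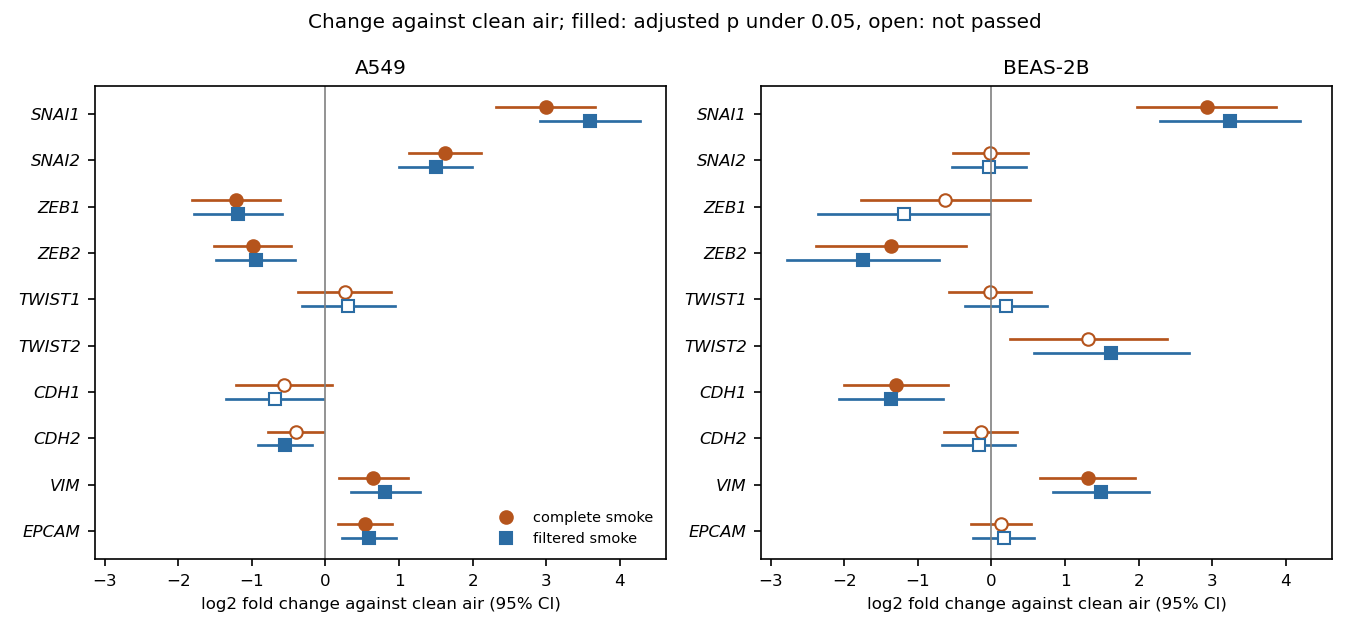
Log2 fold change of each gene against clean air in A549 (left) and BEAS-2B cells (right) with complete (circles) and filtered smoke (squares); lines are 95% confidence intervals, filled points have an adjusted p under 0.05, and TWIST2 was not tested in A549 cells. SNAI1 lies near 3 or above in all 4 comparisons, while SNAI2 lies at 1.63 and 1.496 in A549 cells and near 0 in BEAS-2B cells.

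SNAI1 showed the largest change of the 10 genes in each of the 4 comparisons with clean air. It lies on chromosome 20 (ENSG00000124216, GRCh38 49982999 to 49988886, plus strand). In A549 cells the libraries held 4.96, 2.68 and 3.57 CPM with clean air, 23.1, 32.3 and 33.1 CPM with complete smoke and 29.3, 50.3 and 54.5 CPM with filtered smoke. Every exposed library lay above every control. The log2 fold changes were 3.00 ± 0.30 (SE; 7.97-fold, adjusted p = 0.000914) and 3.59 ± 0.31 (12.1-fold, adjusted p = 0.000351). In BEAS-2B cells the values were 3.08, 4.12 and 2.67 CPM with clean air, 16.1, 40.3 and 18.4 CPM with complete smoke and 20.1, 43.8 and 29.9 CPM with filtered smoke. Library 2 was the highest of 3 in each of these groups, and the exposed libraries again lay clear of the controls. The changes were 2.93 ± 0.42 (7.61-fold, adjusted p = 0.00247) and 3.24 ± 0.43 (9.47-fold, adjusted p = 0.00241). All 4 changes passed under every alternative run, each library left out included, and were 2.26 and 2.59 in BEAS-2B cells with library size alone.

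SNAI2, the closest relative of SNAI1 in the panel, changed in A549 cells. It lies on chromosome 8 (ENSG00000019549, 48917604 to 48921740, minus strand). A549 libraries held 2.69, 2.96 and 2.24 CPM with clean air, 6.07, 9.48 and 8.69 CPM with complete smoke and 6.69, 6.78 and 8.73 CPM with filtered smoke. No exposed library overlapped the controls, and SNAI2 rose by 1.63 ± 0.22 (3.09-fold, adjusted p = 0.00191) and 1.496 ± 0.22 (2.82-fold, adjusted p = 0.00158). BEAS-2B libraries held 11.4, 19.0 and 18.5 CPM with clean air, 14.0, 17.3 and 16.2 CPM with complete smoke and 13.3, 16.4 and 17.9 CPM with filtered smoke. There the groups overlapped throughout, the log2 changes were -0.02 and -0.04 (adjusted p = 0.959 and 0.906), and the 95% confidence intervals ran from -0.52 to 0.49 and from -0.54 to 0.47. Over 16 alternatives these log2 changes ran from -0.72 to 0.08 and from -0.73 to 0.06, and none passed. The exposed A549 cells therefore still held less SNAI2 than any BEAS-2B library, whose lowest value was 11.4 CPM.

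**Figure D3:**
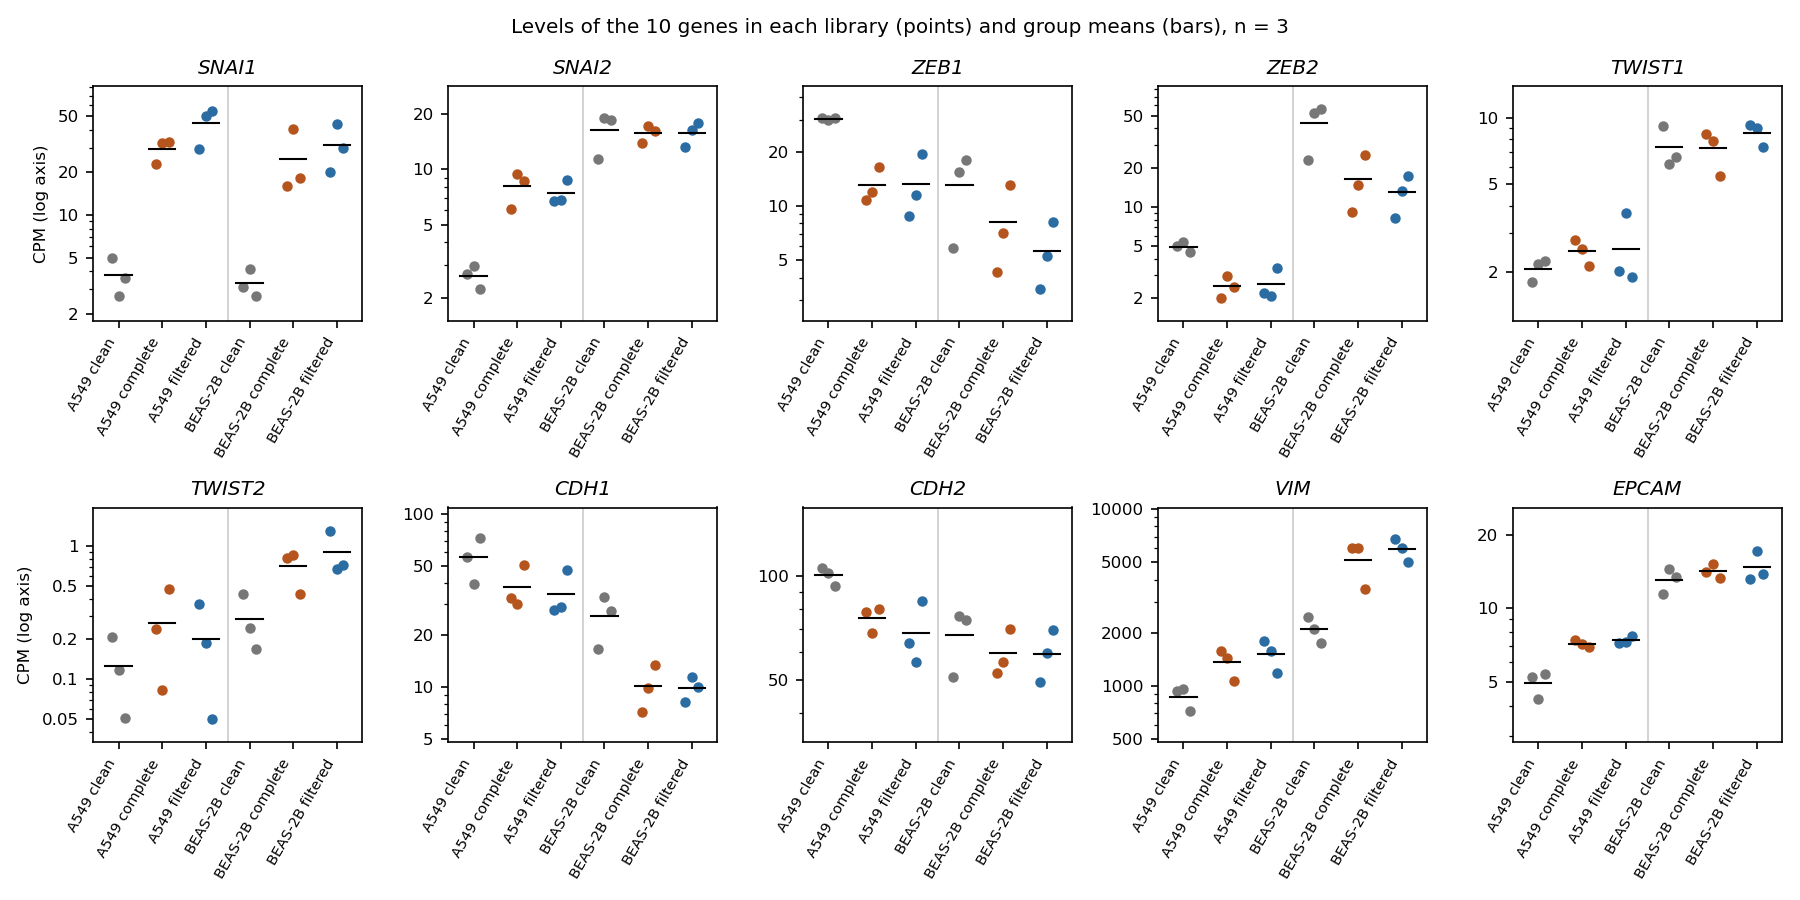
CPM of each gene (log axes, which differ between panels) in every library of the 6 groups; points are libraries in replicate order and bars the means of 3. SNAI1 and VIM rise with either smoke in both lines, and among BEAS-2B controls library 1 is the lowest for SNAI2, ZEB1, ZEB2, CDH1, CDH2 and EPCAM.

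ZEB1 and ZEB2, the other E-box repressors, moved against SNAI1. ZEB1 (chromosome 10, ENSG00000148516, 31318495 to 31529814, plus strand) fell in A549 cells from 30.8, 29.7 and 30.6 CPM with clean air to 10.8, 11.9 and 16.3 CPM with complete smoke and 8.83, 11.5 and 19.3 CPM with filtered smoke. Library 3 held the most in both exposed groups and still lay below every control. The log2 changes were -1.21 ± 0.27 (adjusted p = 0.0113) and -1.19 ± 0.27 (adjusted p = 0.00731), and the first no longer passed without complete smoke library 2 (adjusted p = 0.0542). In BEAS-2B cells ZEB1 held 5.82, 15.4 and 18.04 CPM with clean air, 4.33, 7.06 and 13.03 CPM with complete smoke and 3.47, 5.29 and 8.17 CPM with filtered smoke. The first library was the lowest of each group and the groups overlapped, and neither change passed (-0.63, adjusted p = 0.335, and -1.19, adjusted p = 0.0813). With the sample number as a block, which the filtered and clean air libraries of this line share as pairs, the change with filtered smoke was -1.17 (adjusted p = 0.000282). Without clean air library 1 and complete smoke library 3 both changes passed, at -1.503 (adjusted p = 0.0124) and -1.48 (adjusted p = 0.00726).

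ZEB2 (chromosome 2, ENSG00000169554, 144364364 to 144524583, minus strand) fell in both lines. A549 libraries held 5.06, 5.37 and 4.53 CPM with clean air, 2.02, 2.95 and 2.47 CPM with complete smoke and 2.21, 2.07 and 3.41 CPM with filtered smoke, with no overlap. The log2 changes were -0.99 ± 0.24 (adjusted p = 0.0149) and -0.95 ± 0.24 (adjusted p = 0.0110). In BEAS-2B cells, where the gene was higher, it went from 22.8, 52.7 and 56.2 CPM to 9.24, 14.8 and 25.2 CPM with complete smoke and 8.25, 13.4 and 17.2 CPM with filtered smoke. Only complete smoke library 3 reached above the lowest control, and the changes were -1.36 ± 0.45 (adjusted p = 0.0385) and -1.74 ± 0.46 (adjusted p = 0.0153). Without clean air library 1 and complete smoke library 3 they were -2.12 and -1.996, and with library size alone -2.02 and -2.44. The calls rest on few libraries. In A549 cells the change with complete smoke no longer passed without complete smoke library 1 (adjusted p = 0.0608) or clean air library 2 (0.0572), and that with filtered smoke without filtered smoke library 2 (0.0521). In BEAS-2B cells leaving out complete smoke library 1 or 2 or clean air library 2 or 3 lost the change with complete smoke (adjusted p from 0.105 to 0.121). Leaving out filtered smoke library 1 or 2 or clean air library 2 or 3 lost that with filtered smoke (0.0505 to 0.0555).

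SNAI and ZEB proteins bind the E-box CAGGTG, so the windows around annotated start sites were searched for these letters on both strands. RefSeq windows of 250 bases before to 50 bases after a start site were found for 5 of the 10 genes, 12 windows in all, and 20.6% of 35116 such windows in the genome hold CAGGTG. Of the 7 ZEB1 windows 2 held it, and the windows of ZEB2, VIM, TWIST2 and CDH2 did not. The 2 ZEB1 windows are printed with those of ZEB2, which fell like ZEB1 in A549 cells, and of VIM, which rose. CAGGTG or its reverse complement CACCTG is in capitals, 5′ to 3′ on the gene's strand (RefSeq, GRCh38.p14).
ZEB1, chr10:31318167-31318466, plus strand: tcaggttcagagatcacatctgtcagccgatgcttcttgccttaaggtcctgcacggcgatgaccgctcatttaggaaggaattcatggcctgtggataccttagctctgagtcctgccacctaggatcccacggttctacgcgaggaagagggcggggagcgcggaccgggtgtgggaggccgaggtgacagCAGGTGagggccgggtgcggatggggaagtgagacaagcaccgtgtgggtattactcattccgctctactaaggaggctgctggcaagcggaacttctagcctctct
ZEB1, chr10:31318966-31319265, plus strand: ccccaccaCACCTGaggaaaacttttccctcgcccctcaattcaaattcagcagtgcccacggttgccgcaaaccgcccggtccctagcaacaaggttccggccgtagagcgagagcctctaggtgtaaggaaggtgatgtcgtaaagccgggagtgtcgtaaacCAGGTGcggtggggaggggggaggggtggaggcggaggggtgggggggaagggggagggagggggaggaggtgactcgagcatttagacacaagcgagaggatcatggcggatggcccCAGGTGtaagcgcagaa
ZEB2, chr2:144520070-144520369, minus strand: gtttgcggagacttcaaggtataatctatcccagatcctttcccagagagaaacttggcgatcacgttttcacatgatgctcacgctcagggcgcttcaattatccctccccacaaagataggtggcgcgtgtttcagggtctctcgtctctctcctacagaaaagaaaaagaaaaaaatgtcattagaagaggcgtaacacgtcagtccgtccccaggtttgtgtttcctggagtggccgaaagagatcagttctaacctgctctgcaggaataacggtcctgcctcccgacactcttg
VIM, chr10:17227991-17228290, plus strand: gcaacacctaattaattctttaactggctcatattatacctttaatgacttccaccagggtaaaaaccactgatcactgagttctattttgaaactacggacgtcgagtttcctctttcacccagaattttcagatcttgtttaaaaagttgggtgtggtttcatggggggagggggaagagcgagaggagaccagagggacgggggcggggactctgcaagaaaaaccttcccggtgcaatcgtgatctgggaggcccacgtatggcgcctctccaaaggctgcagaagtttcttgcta
The first ZEB1 window has 1 match, at position -57 from its start site, and the second has 3, at positions -242, -85 and 34. The looser E-box CANNTG, which includes CAGGTG, stood once in the ZEB2 window and not in the VIM window, and 68.7% of all windows hold it. A match describes these letters only, and no match says nothing about binding elsewhere.

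The long transcripts beside the ZEB genes and the hosts of their microRNAs were looked up after the values above had been seen. ZEB1-AS1, a noncoding RNA that starts on the other strand next to ZEB1, was higher with smoke in both lines. The reported fall of ZEB1 passed in A549 cells only. ZEB1-AS1 went from 2.76 ± 0.33 CPM to 4.24 ± 0.62 with complete and 4.45 ± 0.60 with filtered smoke in A549 cells (log2 change 0.64, adjusted p = 0.0405, and 0.70, adjusted p = 0.0209). In BEAS-2B cells ZEB1-AS1 went from 1.17 ± 0.14 CPM to 2.19 ± 0.42 and 2.16 ± 0.48 (0.93, adjusted p = 0.0256, and 0.89, adjusted p = 0.0259), and the counts used here keep the strands apart. These calls passed in 7 and 11 of 15 alternatives in A549 cells and in 8 and 9 of 16 in BEAS-2B cells. ZEB1 and ZEB2 messages are classic targets of the miR-200 family and miR-205, which share few seeds. Their mature sequences (RefSeq, GRCh38.p14) are printed with bases 2 to 8, the seed, in capitals.
hsa-miR-200c-3p: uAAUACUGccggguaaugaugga
hsa-miR-141-3p: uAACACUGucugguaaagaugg
hsa-miR-205-5p: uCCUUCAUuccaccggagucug
The seed of miR-200c-3p is shared by miR-200b-3p and miR-429 and that of miR-141-3p by miR-200a-3p. Mature microRNAs were not measured, only host transcripts. MIR205HG had no count in any A549 library, where 3 counts would be 0.117 to 0.184 CPM, and 2.28 to 6.13 CPM in BEAS-2B libraries. Its changes with smoke in BEAS-2B cells did not pass (0.64, adjusted p = 0.135, and 0.56, adjusted p = 0.170). MIR200CHG had at most 1 count in A549 libraries and 1 to 15 counts in BEAS-2B libraries.

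TWIST1 and TWIST2 held low levels. TWIST1 (chromosome 7, ENSG00000122691, 19020991 to 19117672, minus strand) ranged from 1.81 to 3.72 CPM over the A549 libraries and from 5.43 to 9.27 CPM over the BEAS-2B libraries. Exposed and control libraries overlapped in both lines and no change passed. The log2 changes were 0.26 and 0.31 in A549 cells and -0.02 and 0.20 in BEAS-2B cells with complete and filtered smoke, with 95% confidence intervals inside -0.58 to 0.94. With library size alone TWIST1 changed by -0.70 with complete smoke in BEAS-2B cells (adjusted p = 0.0195), close to the -0.75 of the median gene under that scaling. TWIST2 (chromosome 2, ENSG00000233608, 238848032 to 238910543, plus strand) had 1 to 10 counts in A549 libraries and was not tested there. In BEAS-2B cells it held 0.44, 0.24 and 0.17 CPM with clean air, 0.82, 0.86 and 0.44 CPM with complete smoke and 1.31, 0.67 and 0.72 CPM with filtered smoke. It rose with filtered smoke (1.63 ± 0.47, adjusted p = 0.0211) and did not pass with complete smoke (1.32 ± 0.48, adjusted p = 0.0507). The change with filtered smoke no longer passed without filtered smoke library 1 (adjusted p = 0.0737) or clean air library 2 (0.0794) or 3 (0.0808). Without clean air library 1 and complete smoke library 3 that with complete smoke passed (2.06, adjusted p = 0.00519).

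CDH1 (chromosome 16, ENSG00000039068, 68737225 to 68835548, plus strand) fell in BEAS-2B cells. Its libraries held 16.5, 33.2 and 27.3 CPM with clean air, 7.17, 9.88 and 13.4 CPM with complete smoke and 8.17, 11.4 and 9.95 CPM with filtered smoke. Every exposed library lay below every control. The log2 changes were -1.29 ± 0.31 (2.45-fold lower, adjusted p = 0.0131) and -1.37 ± 0.31 (2.58-fold lower, adjusted p = 0.00982), and the first no longer passed without clean air library 2 (-1.09, adjusted p = 0.0560). With library size alone they were -1.96 and -2.07. In A549 cells CDH1 held 56.2, 39.5 and 72.5 CPM with clean air, 32.7, 30.2 and 50.5 CPM with complete smoke and 27.8, 28.9 and 47.1 CPM with filtered smoke. Within each sample number the exposed libraries lay below the control, but across numbers the groups overlapped, and the changes of -0.56 (adjusted p = 0.158) and -0.69 (adjusted p = 0.0784) did not pass. With the sample number as a block they passed, at -0.56 (adjusted p = 0.00333) and -0.69 (adjusted p = 0.000648).

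CDH2 (chromosome 18, ENSG00000170558, 27950966 to 28177446, minus strand) passed only in A549 cells with filtered smoke. In A549 cells it held 106, 102 and 93.9 CPM with clean air, 78.7, 68.1 and 80.0 CPM with complete smoke and 63.9, 56.3 and 84.9 CPM with filtered smoke. All exposed libraries lay below the controls. CDH2 fell with filtered smoke (-0.55 ± 0.17, adjusted p = 0.0232) and did not pass with complete smoke (-0.40 ± 0.17, adjusted p = 0.0846), where the block gave -0.41 (adjusted p = 0.0204). The change with filtered smoke no longer passed without filtered smoke library 1 or 2 or any 1 of the 3 clean air libraries (adjusted p from 0.0503 to 0.0988). In BEAS-2B cells CDH2 ranged from 49.3 to 76.6 CPM, the groups overlapped, and the changes were -0.14 and -0.17 (adjusted p = 0.616 and 0.532, 95% confidence intervals -0.64 to 0.35 and -0.67 to 0.32).

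VIM (chromosome 10, ENSG00000026025, 17228259 to 17237593, plus strand) rose in both lines. A549 libraries held 935, 955 and 718 CPM with clean air, 1566, 1443 and 1064 CPM with complete smoke and 1796, 1574 and 1176 CPM with filtered smoke. Library 3 was the lowest of each group and no exposed library overlapped the controls. The log2 changes were 0.65 ± 0.21 (1.57-fold, adjusted p = 0.0392) and 0.81 ± 0.21 (1.75-fold, adjusted p = 0.0125). BEAS-2B libraries went from 2440, 2092 and 1747 CPM to 6026, 5999 and 3542 CPM with complete smoke and 6820, 5995 and 5000 CPM with filtered smoke. The lowest exposed library lay above the highest control, and VIM rose by 1.31 ± 0.29 (2.47-fold, adjusted p = 0.00929) and 1.49 ± 0.29 (2.81-fold, adjusted p = 0.00580). The BEAS-2B changes passed under every alternative run, but were 0.62 and 0.82 with library size alone, under which the median of all genes was at -0.75 and -0.74. That of A549 cells with complete smoke no longer passed without complete smoke library 1 or 2 or any 1 of the clean air libraries (adjusted p from 0.0850 to 0.136), and that with filtered smoke without clean air library 3 (0.0549). VIM-AS1 overlaps VIM on the other strand, and the strand-specific VIM counts were 2.90 times those of the count that ignores strand, under which the changes were 0.70, 0.78, 1.39 and 1.44 in the order above.

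EPCAM (chromosome 2, ENSG00000119888, 47345158 to 47387601, plus strand) rose slightly in A549 cells. Its libraries held 5.22, 4.24 and 5.40 CPM with clean air, 7.44, 7.15 and 6.93 CPM with complete smoke and 7.24, 7.30 and 7.73 CPM with filtered smoke, with no overlap. The log2 changes were 0.54 ± 0.17 (adjusted p = 0.0319) and 0.59 ± 0.17 (adjusted p = 0.0162). The change with complete smoke no longer passed without complete smoke library 1 or 2 or any 1 of the clean air libraries (adjusted p from 0.0537 to 0.122), and that with filtered smoke without clean air library 2 (0.0714). Neither passed with library size alone (0.42, adjusted p = 0.0773, and 0.44, adjusted p = 0.0547). In BEAS-2B cells EPCAM ranged from 11.4 to 17.2 CPM and the changes of 0.13 and 0.17 did not pass (adjusted p = 0.581 and 0.460).

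Complete and filtered smoke were compared directly, since filtering leaves the gas phase. None of the 9 genes tested in A549 cells or the 10 in BEAS-2B cells passed, and 0 of all genes did in either line (edgeR, adjusted p under 0.05). At an unadjusted p under 0.05 there were 236 genes in A549 and 222 in BEAS-2B cells, of which none of the panel. The DESeq2 Wald test called no gene of the panel either. The libraries of the 2 smokes overlapped in every gene of the panel, while they did not in 4.11% of all genes in A549 and 4.87% in BEAS-2B cells. In A549 cells SNAI1 had the largest difference, 29.5 ± 5.54 CPM with complete against 44.7 ± 13.5 CPM with filtered smoke (log2 difference -0.60, 95% confidence interval -1.20 to 0.00), and in BEAS-2B cells it was 24.9 ± 13.3 against 31.3 ± 11.9 CPM (-0.32, -1.18 to 0.55). For VIM the differences were -0.16 (-0.62 to 0.31) and -0.18 (-0.82 to 0.45), and for CDH1 0.13 (-0.53 to 0.79) and 0.07 (-0.62 to 0.77). The widest intervals were those of ZEB1 and ZEB2 in BEAS-2B cells, at 0.56 (-0.60 to 1.72) and 0.38 (-0.63 to 1.39). These intervals leave room for differences of 1.5-fold or more in most of the genes, so the 2 smokes are not shown to act alike.

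Whether the lines responded differently was tested as the difference of their changes, BEAS-2B minus A549. SNAI2 was the only one of the 10 genes that passed, at -1.66 ± 0.33 with complete smoke (adjusted p = 0.0200) and -1.53 ± 0.33 with filtered smoke (adjusted p = 0.0387). Few genes passed in these comparisons, 1.74% and 0.825% of 17703, with 1.17% and 0.514% lower. The difference with complete smoke no longer passed without A549 clean air library 1 (adjusted p = 0.0550), A549 complete smoke library 3 (0.0540) or BEAS-2B complete smoke library 1 (0.0548). That with filtered smoke no longer passed in 10 of the 12 cases in which 1 library was left out, any but A549 filtered smoke library 1 and BEAS-2B clean air library 1, with adjusted p from 0.0531 to 0.101 and the log2 difference from -1.71 to -1.40. For SNAI1 the differences were -0.07 (95% confidence interval -1.17 to 1.03) and -0.34 (-1.44 to 0.76). For VIM they were 0.67 (-0.08 to 1.42, adjusted p = 0.347) and 0.70 (-0.05 to 1.45, adjusted p = 0.396), and with the sample number as a block, which pairs the libraries in the filtered smoke comparison, the second was 0.71 (adjusted p = 0.0195). CDH1 (-0.77 and -0.68), ZEB1 (0.53 and -0.01) and ZEB2 (-0.42 and -0.80) did not pass. With complete smoke the differences of CDH1 and VIM passed without BEAS-2B clean air library 1 and complete smoke library 3 (-1.26, adjusted p = 0.0436, and 1.003, adjusted p = 0.0417).

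The genes of the panel differ widely in gene span, the distance from the first to the last annotated base (GENCODE v29), and the changes of all genes followed span. Among all tested genes below 10 kb the median change against clean air was 0.55 and 0.67 in A549 cells and 0.71 and 0.78 in BEAS-2B cells with complete and filtered smoke. Among those of 100 to 200 kb it was -0.56 and -0.61 in A549 cells and -0.64 and -0.74 in BEAS-2B cells. Of the genes of the panel that rose, SNAI2 spans 4.14 kb, SNAI1 5.89 kb and VIM 9.34 kb, while EPCAM spans 42.4 kb and TWIST2 62.5 kb. TWIST2 and EPCAM went against the trend. TWIST2 was at 1.63 with filtered smoke in BEAS-2B cells, where genes of 30 to 100 kb had a median of -0.35. The span offsets described next put it at 2.05. For EPCAM the A549 changes were 0.54 (complete) and 0.59 (filtered), where genes of that class had medians of -0.16 and -0.21. With the offsets EPCAM was at 0.64 (adjusted p = 0.0186) and 0.74 (0.00687) there. The genes of the panel that fell are long: CDH1 spans 98.3 kb, ZEB2 160 kb, ZEB1 211 kb and CDH2 226 kb. Offsets that take the trend with span out of each library, an alternative added after the data had been seen, left SNAI1 at 2.66 and 3.24 in A549 and 2.64 and 2.94 in BEAS-2B cells, all passing. SNAI2 in A549 cells was at 1.26 (adjusted p = 0.00903) and 1.10 (0.00897). VIM stayed at 1.07 (adjusted p = 0.00373) and 1.22 (0.00238) in BEAS-2B cells and at 0.50 (0.0444) in A549 cells with filtered smoke, and did not pass with complete smoke (0.38, adjusted p = 0.133). The falls became smaller. ZEB1 in A549 cells was at -0.67 (adjusted p = 0.0254) and -0.62 (0.0222), ZEB2 in BEAS-2B cells at -0.87 (0.0432) and -1.06 (0.0192), and CDH1 in BEAS-2B cells at -0.83 (0.0136) and -0.77 (0.0169). ZEB2 in A549 cells no longer passed (-0.45, adjusted p = 0.136, and -0.38, adjusted p = 0.171). CDH2 changed sign, to 0.038 in A549 cells (adjusted p = 0.828) and 0.49 in BEAS-2B cells (adjusted p = 0.0237) with filtered smoke.

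**Figure D4:**
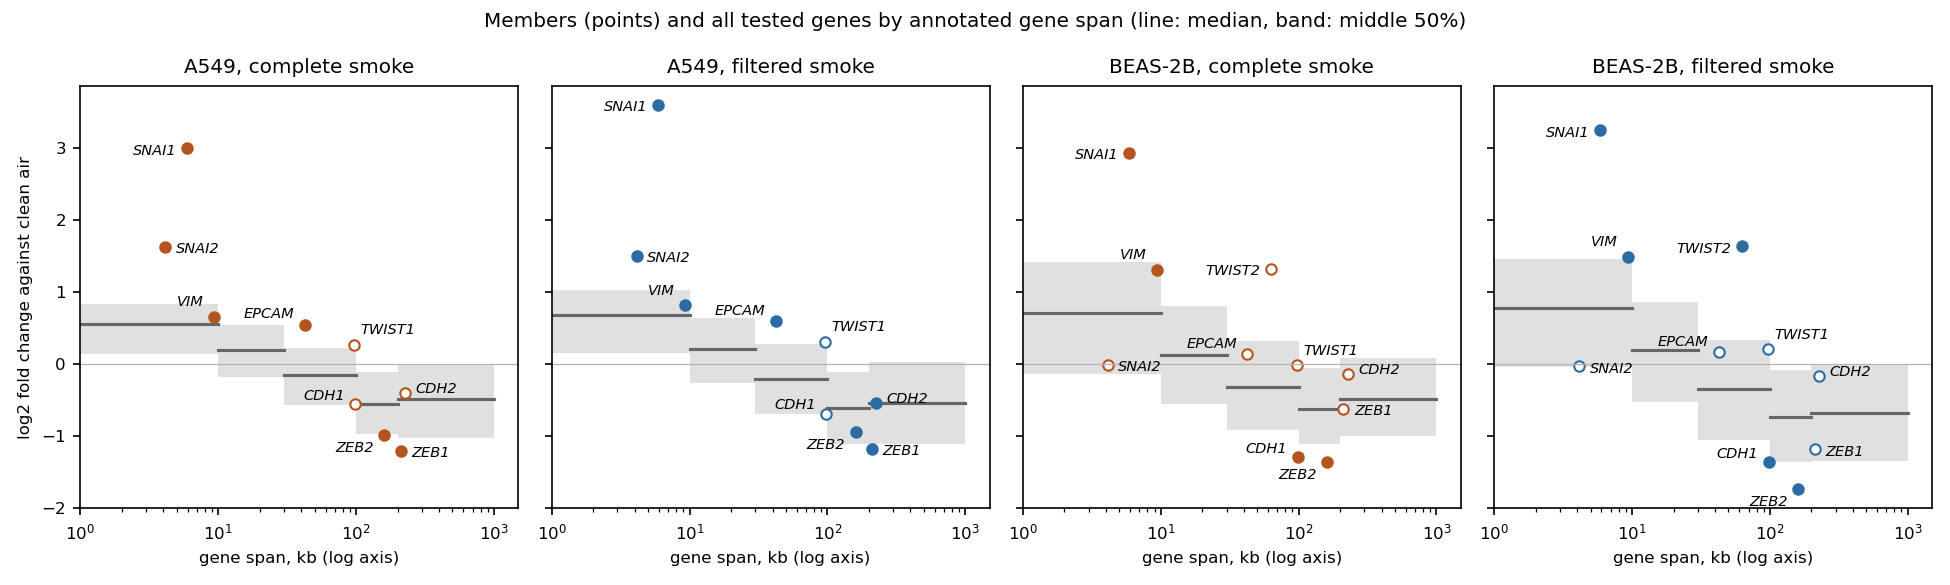
Log2 fold change against clean air by annotated gene span (log axis); points are the genes of the panel, filled where the adjusted p is under 0.05, lines the medians of all tested genes in 5 span classes and bands their middle 50%. SNAI1 lies far above the band of genes below 10 kb in each comparison, whereas CDH2 lies inside the band of its span class in all 4. VIM lies inside the band of genes below 10 kb, except just above it in BEAS-2B cells with filtered smoke (1.49 against 1.45).

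The partners of the cadherins changed in both directions. Of 25 genes of the adhesion complex and other cadherins, 16 were tested in A549 and 13 in BEAS-2B cells. In A549 cells 2 rose and 3 fell with complete smoke, and 2 rose and 2 fell with filtered smoke, where 32.5% and 46.7% of all genes passed. In BEAS-2B cells 1 rose and 2 fell, and 1 rose and 3 fell, where 41.0% and 48.6% passed. The shares of the list lay below those of all genes in each comparison, but close to them in A549 cells with complete smoke. With so few genes tested this is not a result about the list. NECTIN2, a nectin of the same junctions, rose in all 4 comparisons: from 51.2 ± 1.09 to 89.6 ± 19.4 CPM with complete smoke in A549 cells (0.81 ± 0.22, adjusted p = 0.0230) and from 22.8 ± 1.13 to 57.4 ± 15.9 CPM with filtered smoke in BEAS-2B cells (1.32 ± 0.29, adjusted p = 0.00830). The last of these passed under every alternative run. In A549 cells the call with complete smoke was lost without complete smoke library 1 or 2 or any 1 clean air library, and that with filtered smoke without filtered smoke library 1 or 2 or clean air library 2. In BEAS-2B cells the call with complete smoke (1.18) was lost without complete smoke library 1 or clean air library 3 and with library size alone, and its lowest value over the alternatives was 0.45. CTNND1, p120-catenin, which holds cadherins at the membrane, fell in A549 cells with filtered smoke from 13.6 ± 0.206 to 6.82 ± 2.61 CPM (-0.98 ± 0.25, adjusted p = 0.0108). CDH24 rose in A549 cells with complete smoke (0.62 ± 0.18, adjusted p = 0.0266) and fell in BEAS-2B cells (-0.82 ± 0.20, adjusted p = 0.0138), and this line difference passed (-1.44 ± 0.26, adjusted p = 0.0139). The rise in A549 cells was lost without complete smoke library 1 or 2 or any 1 clean air library, with library size alone and with span offsets (0.37, adjusted p = 0.113), while the other 2 calls passed under every alternative run. With clean air the lines held different cadherins: CDH3, P-cadherin, was at 51.1 ± 6.4 CPM in BEAS-2B and 0.820 ± 0.151 CPM in A549 cells (5.94 ± 0.46, adjusted p = 1.10e-08). CDH13 was at 31.2 ± 9.14 CPM in BEAS-2B cells and 0.0170 ± 0.0294 CPM in A549 cells, while CDH17 was at 17.4 ± 5.14 CPM in A549 cells and had no count in BEAS-2B clean air libraries, where 3 counts would be 0.0803 to 0.0944 CPM.

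Of 40 genes of epithelial junctions, polarity and splicing, 29 were tested in A549 cells, where 2 rose and 6 fell with complete and 4 rose and 9 fell with filtered smoke. All 40 were tested in BEAS-2B cells, where 3 rose and 10 fell, and 6 rose and 10 fell. Of all genes 16.9% and 23.5% fell in A549 cells and 19.5% and 24.9% in BEAS-2B cells, and 32.5%, 46.7%, 41.0% and 48.6% passed in either direction. The shares of the list that passed in either direction lay below those of all genes, but close to them in A549 cells with filtered smoke, and are not a result about the list. The list medians were -0.11 and -0.21 in A549 and -0.05 and -0.27 in BEAS-2B cells, against -0.07 to 0.02 over all genes. With the sample number as a block, in the comparisons whose libraries pair, 5 rose and 10 fell in A549 cells with complete smoke, and 11 rose and 17 fell in BEAS-2B cells with filtered smoke. Under the block 4159 of all 15244 genes rose and 4162 fell in the first, and 5217 of 16356 rose and 5731 fell in the second. CGN, cingulin of tight junctions, fell in all 4 comparisons, from 7.38 ± 2.07 to 2.90 ± 0.41 CPM in A549 (-1.33 ± 0.23, adjusted p = 0.00466) and from 9.64 ± 1.78 to 2.69 ± 0.164 CPM in BEAS-2B cells (-1.81 ± 0.21, adjusted p = 0.00164) with complete smoke. TJP1, the tight junction scaffold ZO-1, fell in A549 cells with filtered smoke (75.7 ± 2.91 to 28.1 ± 13.9 CPM, -1.42 ± 0.32, adjusted p = 0.00715). PPL, periplakin of desmosomes, fell in BEAS-2B cells with complete smoke (58.3 ± 19.7 to 11.02 ± 2.38 CPM, -2.37 ± 0.27, adjusted p = 0.00164), as did ELF3, an epithelial ETS factor (55.0 ± 19.4 to 14.9 ± 6.55 CPM, -1.90 ± 0.39, adjusted p = 0.00736). CRB3 and RAB25, of apical polarity and apical vesicle traffic, rose there with complete smoke (1.79 ± 0.47, adjusted p = 0.0175, and 1.63 ± 0.48, adjusted p = 0.0258). Both calls were lost without complete smoke library 1 or clean air library 2 or 3, and that of RAB25 also without complete smoke library 2. LSR, of tricellular junctions, rose in A549 cells with filtered smoke (0.88 ± 0.17, adjusted p = 0.00382). With clean air GRHL2, an epithelial factor, was at 3.97 ± 0.802 CPM in BEAS-2B cells against 0.0300 ± 0.0266 CPM in A549 cells.

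Of 35 mesenchymal and motility genes, 29 were tested in A549 and 34 in BEAS-2B cells. In A549 cells 1 rose and 0 fell with complete smoke, and 5 rose and 5 fell with filtered smoke. In BEAS-2B cells 7 rose and 4 fell, and 8 rose and 4 fell. These shares lay below the 32.5%, 46.7%, 41.0% and 48.6% of all genes that passed. The block gave 5 higher and 8 lower in A549 cells with complete smoke, 6 and 9 with filtered smoke, and 13 and 5 in BEAS-2B cells with filtered smoke. Of all 15244 genes in A549 cells it called 4159 higher and 4162 lower, and 4641 and 4765. Of 16356 genes in BEAS-2B cells it called 5217 higher and 5731 lower. With library size alone the split in BEAS-2B cells turned to 2 higher and 14 lower, and 3 higher and 11 lower. Under that scaling 1531 of all 16356 genes rose and 6835 fell with complete smoke, and 1663 rose and 7415 fell with filtered smoke. ACTA2, smooth muscle actin, rose in BEAS-2B cells with filtered smoke from 2.28 ± 0.688 to 8.87 ± 3.54 CPM (1.93 ± 0.40, adjusted p = 0.00725). Matrix and receptor genes fell beside it: PDGFRB from 30.4 ± 7.54 to 7.96 ± 1.56 CPM (-1.92 ± 0.26, adjusted p = 0.00247) and FBN1, fibrillin, from 172 ± 77.8 to 55.1 ± 8.32 CPM (-1.62 ± 0.38, adjusted p = 0.0105). In A549 cells with filtered smoke COL6A2 rose (17.4 ± 1.68 to 33.1 ± 6.01 CPM, 0.94 ± 0.18, adjusted p = 0.00386) and COL1A1 fell (29.7 ± 10.1 to 9.80 ± 3.19 CPM, -1.59 ± 0.36, adjusted p = 0.00730). With clean air 22 of 35 genes were higher in BEAS-2B and 7 in A549 cells (list median 1.84, against 0.01 over all genes, of which 27.3% were higher and 28.0% lower), LOX among the former (206 ± 87.8 against 2.05 ± 0.952 CPM) and S100A4 among the latter (402 ± 83.9 against 3.896 ± 2.73 CPM).

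**Figure D5:**
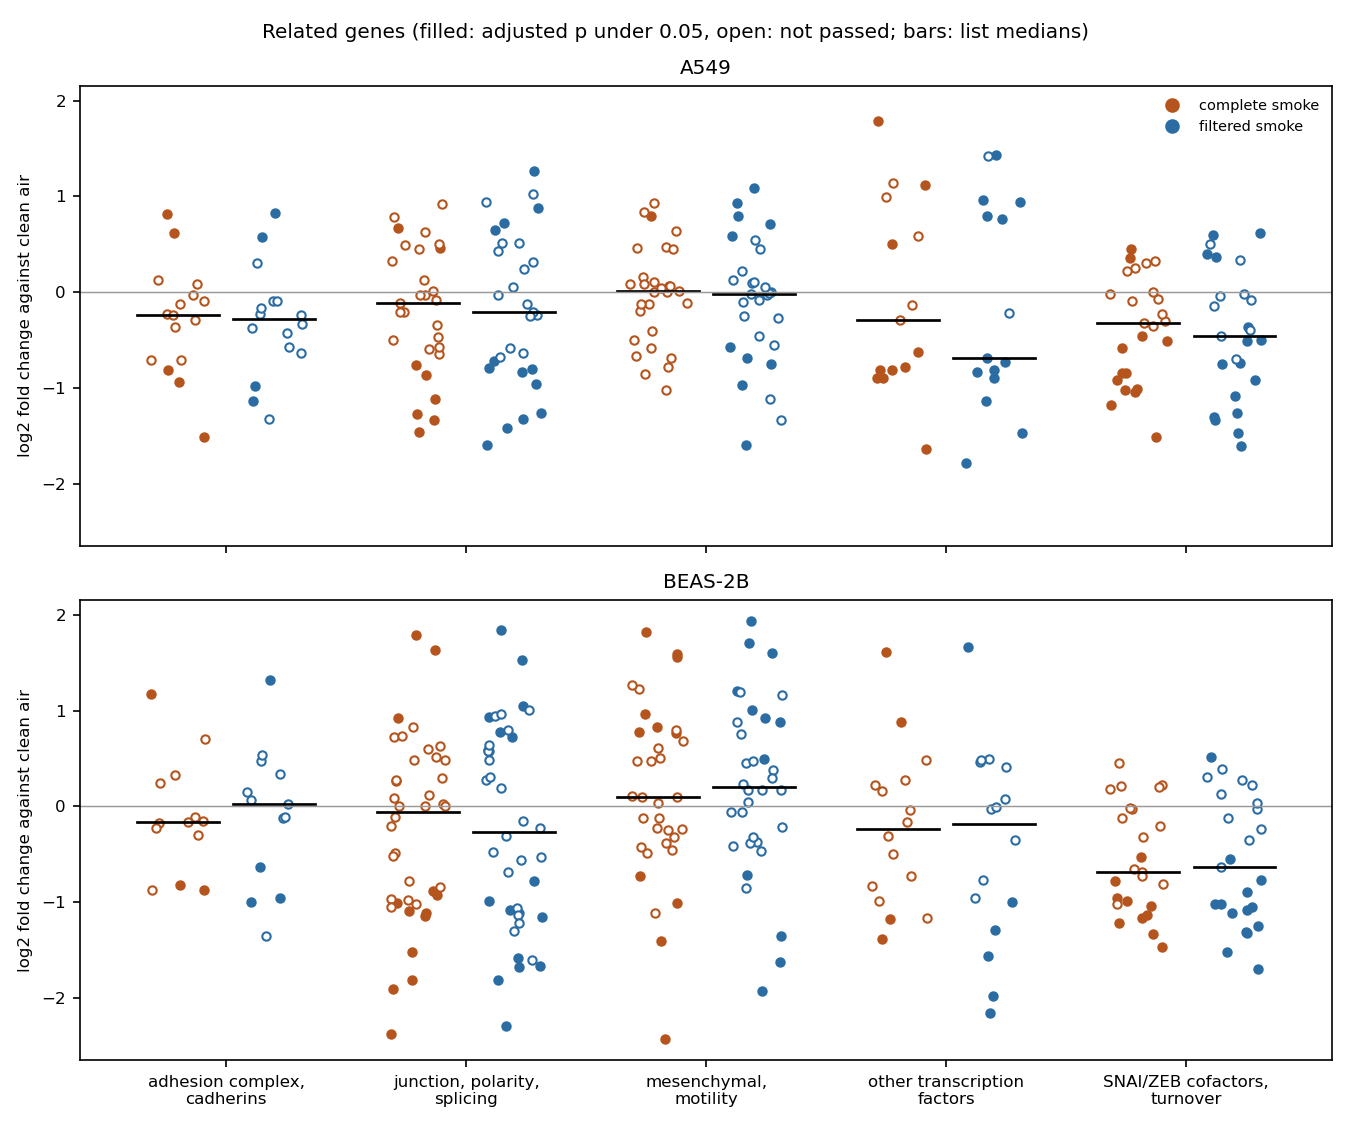
Log2 fold changes against clean air of the tested genes of 5 related lists in A549 (top) and BEAS-2B cells (bottom); points are genes, filled where the adjusted p is under 0.05, and bars are list medians. The cofactor and turnover list has its medians between -0.69 and -0.32, and the mesenchymal list those between -0.02 and 0.20.

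Among 20 other transcription factors linked to the transition, 3 of 15 tested rose and 7 fell in A549 cells with complete smoke, and 5 rose and 8 fell with filtered smoke. Of all genes 15.6% rose and 16.9% fell, and 23.1% rose and 23.5% fell, in these comparisons. In BEAS-2B cells 2 of 16 rose and 2 fell, and 1 rose and 5 fell, and the block gave 3 and 6 for filtered smoke. There 41.0% and 48.6% of all genes passed, and under the block 5217 of 16356 rose and 5731 fell with filtered smoke. With the span offsets 1 rose and 2 fell, and 2 rose and 3 fell, in A549 cells. Of all 14891 genes these offsets called 1826 higher and 1807 lower, and 3206 higher and 2792 lower. FOSL1, an AP-1 subunit, rose in all 4 comparisons, from 34.3 ± 8.23 to 118 ± 34.5 CPM in A549 cells (1.79 ± 0.27, adjusted p = 0.00283) and from 53.1 ± 5.61 to 163 ± 67.8 CPM in BEAS-2B cells (1.61 ± 0.33, adjusted p = 0.00722) with complete smoke. TEAD1, the DNA-binding partner of YAP1, fell in A549 cells with complete smoke (319 ± 12.3 to 102 ± 30.5 CPM, -1.64 ± 0.31, adjusted p = 0.00673), and SOX4 fell in both lines with filtered smoke (-1.14 ± 0.17, adjusted p = 0.00156, and -1.57 ± 0.41, adjusted p = 0.0152). The fall of SOX4 in BEAS-2B cells was lost without filtered smoke library 2 or clean air library 2 or 3. TCF4, an E-protein partner of TWIST factors, fell in BEAS-2B cells with filtered smoke from 1.99 ± 0.682 to 0.436 ± 0.115 CPM (-2.16 ± 0.43, adjusted p = 0.00655).

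Among SNAI and ZEB cofactors and turnover genes more fell than rose. Of 25 genes, all tested, 2 rose and 11 fell in A549 cells with complete smoke, 4 rose and 12 fell with filtered smoke. In BEAS-2B cells 0 rose and 10 fell, and 1 rose and 13 fell. Of all genes 16.9% and 23.5% fell in A549 cells and 19.5% and 24.9% in BEAS-2B cells. In the same order 15.6%, 23.1%, 21.5% and 23.6% rose. The list medians were -0.32, -0.46, -0.69 and -0.63. With span offsets they were -0.15, -0.12, -0.27 and -0.21, with 7, 9, 8 and 6 genes lower and 2, 5, 3 and 4 higher. With those offsets 1807, 2792, 2921 and 3460 of all genes were lower and 1826, 3206, 3869 and 4221 higher. They covered 14891 genes in A549 and 15871 in BEAS-2B cells. GSK3B, the kinase that marks SNAI1 protein for destruction, fell in A549 cells from 82.4 ± 1.83 to 28.8 ± 3.48 CPM with complete smoke (-1.51 ± 0.17, adjusted p = 0.00101) and to 26.9 ± 5.16 CPM with filtered smoke (-1.61 ± 0.17, adjusted p = 5.70e-04). BTRC, the ubiquitin ligase subunit that reads that mark, fell in BEAS-2B cells with filtered smoke from 17.7 ± 1.36 to 7.07 ± 0.621 CPM (-1.33 ± 0.21, adjusted p = 0.00331). LIMD1, a LIM-domain relative of the SNAI corepressor AJUBA, fell in all 4 comparisons, for example from 83.8 ± 30.2 to 25.7 ± 1.23 CPM in BEAS-2B cells with filtered smoke (-1.69 ± 0.31, adjusted p = 0.00509). PAK1, a kinase known to phosphorylate SNAI1, rose in A549 cells with filtered smoke from 23.6 ± 1.42 to 36.0 ± 3.00 CPM (0.61 ± 0.13, adjusted p = 0.00617). With clean air SMARCA4, the BRG1 helicase that ZEB1 can recruit, was at 70.3 ± 14.98 CPM in BEAS-2B and 9.52 ± 0.752 CPM in A549 cells (2.88 ± 0.19, adjusted p = 1.11e-09).

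The genes whose levels most resembled each member were found among 10091 protein-coding genes by the Pearson correlation of log2 CPM over the 18 libraries, with the mean of each line taken away. These libraries share the same exposures, so the values describe a common response and carry no test. SNAI1 was closest to the early genes ID2 (0.978), IER2 (0.971) and IER5 (0.970). SNAI2 was closest to ADAMTS1 (0.919), EGR3 (0.904) and KLF4 (0.900), and EPCAM to EGR3 (0.922), EGR2 (0.893) and KLF4 (0.885). ZEB1 was closest to ATR (0.990), USP25 (0.978) and POLK (0.978), ZEB2 to STAG2 (0.987), SHOC2 (0.984) and SLMAP (0.983), and VIM to C1QBP (0.991), MAPKAPK3 (0.990) and SLC25A6 (0.989). CDH1 was closest to ADGRL2 (0.968), HP1BP3 (0.962) and PKD2 (0.962), and CDH2 to NUP155 (0.961), PTPRK (0.959) and PPP2R1B (0.932). TWIST1 had the weakest neighbours, NHERF2 (0.839), ZNF513 (0.833) and PDK2 (0.831).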

How the data were processed

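Per the submitters' processing notes, the authors mapped reads with STAR 2.7.10b to GRCh38, and the deposited files hold raw counts per gene in 3 columns, with 4 summary lines left out here. The gene annotation is not given in the sources used here. Per the labels' protocols, RNA was extracted with Trizol and libraries made with a TruSeq mRNA kit v2. The fourth column of each file, counts of one strand, was used, as its total was 11.7 to 17.1 times that of the opposite strand. Libraries held 14438397 to 55032499 gene counts, the shallower ones in A549 cells.

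Genes passing filterByExpr were tested in R 4.3.3 with edgeR 4.0.16 (TMM, robust quasi-likelihood test) on the 9 libraries of a line, or on all 18 for line differences, taken as BEAS-2B minus A549. A Benjamini-Hochberg adjusted p under 0.05 over all genes tested passed. Standard errors and 95% intervals of log2 fold changes come from the test statistic. The labels leave unsaid if a group's 3 samples were separate cultures, so p-values measure the spread between samples, which may be technical. Positions, exonic length and span are from GENCODE v29, which held 58225 of the 62649 gene IDs. Members and lists were chosen with earlier results of these data known. Genes named from the 5 lists were drawn from up to 3 with the highest and 3 with the lowest change among those that passed and averaged 1 CPM or more. Some of these are not reported here. Neighbours by correlation needed a mean of at least 5 CPM.

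The labels number the samples 1 to 3 across the groups of a line. Deviations of same-numbered libraries from their group means correlated in A549 cells (0.150 to 0.701). In BEAS-2B cells they did so between filtered smoke and clean air (0.148 to 0.555), so both were taken as pairs. The pairs enter only the block, an alternative, and the reported calls come from group means without pairing. Between complete smoke and clean air in BEAS-2B cells numbers 1 and 3 correlated (0.618 and 0.619). Number 2 did not (-0.123), and for that reason alone the comparison was not taken as paired. Alternatives were DESeq2 1.42.0 size factors and Wald test, library size alone, no or a stricter low-count filter (10 counts in every library), counts that ignore strand, the block, only the 6 libraries compared and each library left out. Chosen after seeing the data were offsets for gene span and leaving out BEAS-2B clean air 1 and complete smoke 3 together. The scripts' tests were checked on simulated data.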

Additional observations from a re-analysis of the deposited data

Results flagged for a closer look

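The response of SNAI2 differed between the lines by a test of the difference itself, with both smokes, but the calls depend on the processing. Of 21 alternatives 3 lost the call with complete smoke and 11 that with filtered smoke. The span offsets were among the latter (edgeR, adjusted p = 0.0605). The log2 change of BEAS-2B minus that of A549 cells was -1.66 with complete and -1.53 with filtered smoke. SNAI2 went from 2.63 ± 0.361 CPM to 8.08 ± 1.79 and 7.40 ± 1.15 CPM in A549 cells, and from 16.3 ± 4.24 CPM to 15.8 ± 1.67 and 15.8 ± 2.34 CPM in BEAS-2B cells (SD, n = 3). The 2 results share the clean air libraries of both lines, and the line and the library series cannot be told apart.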

How the results depend on the processing

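Of 87 pairs of a gene of the panel and a comparison, 32 passed, and 16 of these passed under every alternative run: SNAI1 in all 4 comparisons with clean air, SNAI2 in both of A549 cells, VIM in both of BEAS-2B cells, CDH1 in BEAS-2B and ZEB1 in A549 cells with filtered smoke, and the clean air differences of CDH1, EPCAM, SNAI2, TWIST1, VIM and ZEB2 between lines. Of 492 alternative values of the pairs that passed, 423 passed in the same direction and 67 did not pass, and 30 alternative values passed where the reported value had not. The sign turned in CDH2 with gene span offsets, to 0.038 in A549 cells (adjusted p = 0.828) and 0.49 in BEAS-2B cells with filtered smoke (adjusted p = 0.0237) and to 0.072 for the clean air line difference (adjusted p = 0.670).

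Leaving out 1 library, the number of genes of the panel that passed ran from 3 to 7 for A549 cells with complete smoke and from 5 to 8 with filtered smoke, from 2 to 5 and from 3 to 6 in BEAS-2B cells, from 6 to 8 for the clean air line difference, and from 0 to 1 for both line differences in response. For the line difference in complete smoke response 3 passed with the replicate block and 3 without BEAS-2B clean air 1 and complete smoke 3, SNAI2 joined by CDH1 and VIM. With the block these were -0.75 and 0.65 (adjusted p = 0.0236 for both). Of all 17703 genes the block called 1827 higher and 1714 lower, and without those 2 libraries 3774 genes passed. For filtered smoke 2 passed with the replicate block and 0 with gene span offsets. There the block called 1406 of all 17703 genes higher and 1336 lower, and the span offsets 107 and 137 of 17146. For BEAS-2B cells with complete smoke, which were not taken as paired, the block gave ZEB1 -0.66 (adjusted p = 0.00931) and TWIST2 1.35 (adjusted p = 0.0115). The cause of these changes was not tested.

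Over all genes the number that passed was 4951, 7112, 6704 and 7947 for the comparisons with clean air (complete and filtered smoke, A549 then BEAS-2B cells) and ran over the alternatives from 1422 to 8321, 4006 to 9406, 2916 to 10616 and 3652 to 10948. For complete against filtered smoke it was 0 and ran up to 19 in A549 and 2 in BEAS-2B cells. For the line differences it was 9799 with clean air (6135 to 10514), 308 for complete (87 to 3774) and 146 for filtered smoke (47 to 2742). Library size alone moved the share of higher calls from 47.9% to 34.7%, 49.6% to 37.9%, 52.5% to 18.3% and 48.7% to 18.3% in the comparisons with clean air, and from 32.5% to 2.86% and 37.7% to 3.41% in the line differences in response. TWIST2 and the host transcripts are limited by depth.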
